A study of Mus musculus with 4 samples.

Results

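The genes described here are 9 chaperones of the heat shock and protein folding machinery, measured in single group 2 innate lymphoid cells (ILC2) sorted from mouse pancreas. They were taken by gene symbol from the row names of the count table: Hspa1a, Hspa1b, Dnajb1, Hspa8, Hspa5, Hsp90ab1, Hsp90aa1, Hsp90b1 and Tcp1. All 9 of the 9 names were found among 11352 gene rows. The values come from plate 1, the plate on which the row names fit the counts.

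The mice are labelled C57BL6J and carried KIKR, a fluorescent protein that is green until violet light turns it red. A photoconverted (KIKR-Red) cell therefore carries a mark of earlier light exposure, and a non-photoconverted (KIKR-Green) cell does not. The series concerns fasting and ILC2 migration, but its labels give neither the feeding state nor the age of the animals behind this plate, nor where the light was applied. ILC2 were index-sorted into the 384 wells of the plate and profiled by SORT-seq, a plate form of CEL-seq2 in which reads start at the 3′ end of polyadenylated transcripts. The sort record lists 12 photoconverted wells, 151 non-photoconverted wells and 221 wells left empty. Cells with at least 500 genes and under 25% mitochondrial reads were kept, which left 8 photoconverted and 98 non-photoconverted cells. Each colour is thus 1 sample from 1 plate, so no difference between colours was tested, and intervals below cover the counting error of cells or reads only.

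Photoconverted cells gave more genes and gene reads, with medians of 2748.5 genes and 540662 gene reads per cell against 1637 genes and 187689.5 gene reads in non-photoconverted cells. Spike-in reads were not higher, with a photoconverted median of 59283.5 against 67405 for the other colour. More RNA per cell and better capture cannot be told apart here, and the number of genes and reads is called depth below. Empty wells had a median of 92 genes. Each photoconverted cell was therefore also set against the 5 non-photoconverted cells nearest to it in number of genes. This depth-matched set has 40 entries, 29 distinct cells and a median of 2718.5 genes. Detection means at least 16 reads of a gene in a cell. Level is given as CPM, the gene's share of the cell's gene reads scaled to 1000000. Reads come from 3′ ends and were not divided by gene length. Of the 12 ILC2 markers, at least 3 were detected in 8 of 8 photoconverted and 78 of 98 non-photoconverted cells. Of 4 T cell and 3 ILC3 markers in the table, no cell had 3, while at least 1 was detected in 2 and 4 of the 8 photoconverted cells and in 12 and 50 of the 106 cells kept. The other lists had 2 or fewer genes in the table. At least 1 of 2 myeloid markers was detected in 6 of 8 photoconverted cells and 35 of 106 cells, and 1 mast cell or basophil marker in 5 of 8 and 23 of 106. The single markers of B cells, of NK cells or ILC1 and of stromal cells were found in none of the 8 photoconverted cells; 5, 4 and 9 of the 106 cells had them. The 2 acinar markers were in 0 cells, and endocrine and erythroid markers had no row. Their part in the results was not tested.

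Chaperones bind unfolded protein and help it to fold. In the cytosol, HSP70 proteins work with J-domain partners such as Dnajb1, and HSP90 proteins finish the folding of kinases and receptors. Heat shock factor 1 raises the inducible forms when unfolded protein accumulates, through heat shock elements in their promoters. The endoplasmic reticulum (ER), where cytokines and other secreted proteins are made, has its own HSP70 and HSP90, which the unfolded protein response raises through ER stress elements. Tissue digestion is known to raise heat shock genes in sorted cells.

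The promoters of the inducible HSP70 pair and of the ER pair are shown because they separate the 2 kinds of response element. Hspa1a (chr17:34969190-34972156, minus strand, mm10) and Hspa1b (chr17:34956436-34959238, minus strand) lie 9951 bases apart, and the 250 bases before their starts are identical at 247 positions (98.8%). RefSeq promoters (GRCm38.p6, the mm10 sequence) were given for 6 of the 9 genes, while Hspa8, Hsp90ab1 and Hsp90aa1 had no entry. Below are 120 bases up to the base before the RefSeq start, on each gene's own strand, with matches to the heat shock motifs GAANNTTC and TTCNNGAA and to the ER stress element (CCAAT, then 9 bases of any kind, then CCACG) in capitals, searched on both strands.
Hspa1a, chr17:34972157-34972276, minus strand: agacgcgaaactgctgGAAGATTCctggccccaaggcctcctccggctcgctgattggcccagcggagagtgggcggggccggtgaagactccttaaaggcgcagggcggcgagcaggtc
Hspa1b, chr17:34959239-34959358, minus strand: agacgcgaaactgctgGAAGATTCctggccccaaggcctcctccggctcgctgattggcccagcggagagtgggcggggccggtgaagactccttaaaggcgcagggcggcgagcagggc
Hspa5, chr2:34771970-34772089, plus strand: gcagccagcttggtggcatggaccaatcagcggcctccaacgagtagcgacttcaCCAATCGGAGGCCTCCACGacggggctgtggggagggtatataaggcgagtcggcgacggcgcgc
Hsp90b1, chr10:86705445-86705564, minus strand: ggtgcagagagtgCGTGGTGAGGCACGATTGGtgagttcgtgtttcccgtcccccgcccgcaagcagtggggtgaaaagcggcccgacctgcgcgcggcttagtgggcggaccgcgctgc

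The heat shock motif GAANNTTC matched in Hspa1a and Hspa1b at the same place, 104 to 97 bases before the start, and in 6.69% of all 32851 RefSeq promoters. The outward arrangement TTCNNGAA, found in 7.17% of promoters, matched in none of the 6, and neither did runs of 3 alternating GAA and TTC units spaced by 2 bases, found in 0.466% of promoters. The ER stress element matched once in Hspa5, 65 to 47 bases before the start. It matched at 2 places in Hsp90b1, of which the one 107 to 89 bases before the start, read on the other strand, is in the window above. The element occurred in 37 of the 32851 promoters (0.113%). The promoters of Dnajb1 and Tcp1 held none of these matches in their 250 bases. A match describes these letters and is not a measured binding site.

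The constitutive cytosolic chaperones were the most widely detected of the 9 genes. Hspa8, the constitutive HSP70, had at least 16 reads in 7 of 8 photoconverted cells (87.5%, exact 95% binomial interval 47.3 to 99.7%), in 97.5% of depth-matched entries, in 82 of 98 non-photoconverted cells (83.7%, 74.8 to 90.4%) and in 2 of 221 empty wells. Hsp90ab1, the constitutive HSP90, was found in 7 of 8 photoconverted cells, 95% of matched entries, 73 of 98 non-photoconverted cells (74.5%, 64.7 to 82.8%) and 3 of 221 empty wells. The photoconverted cell that lacked them at 16 reads was the same one for both genes.

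**Figure D1:**
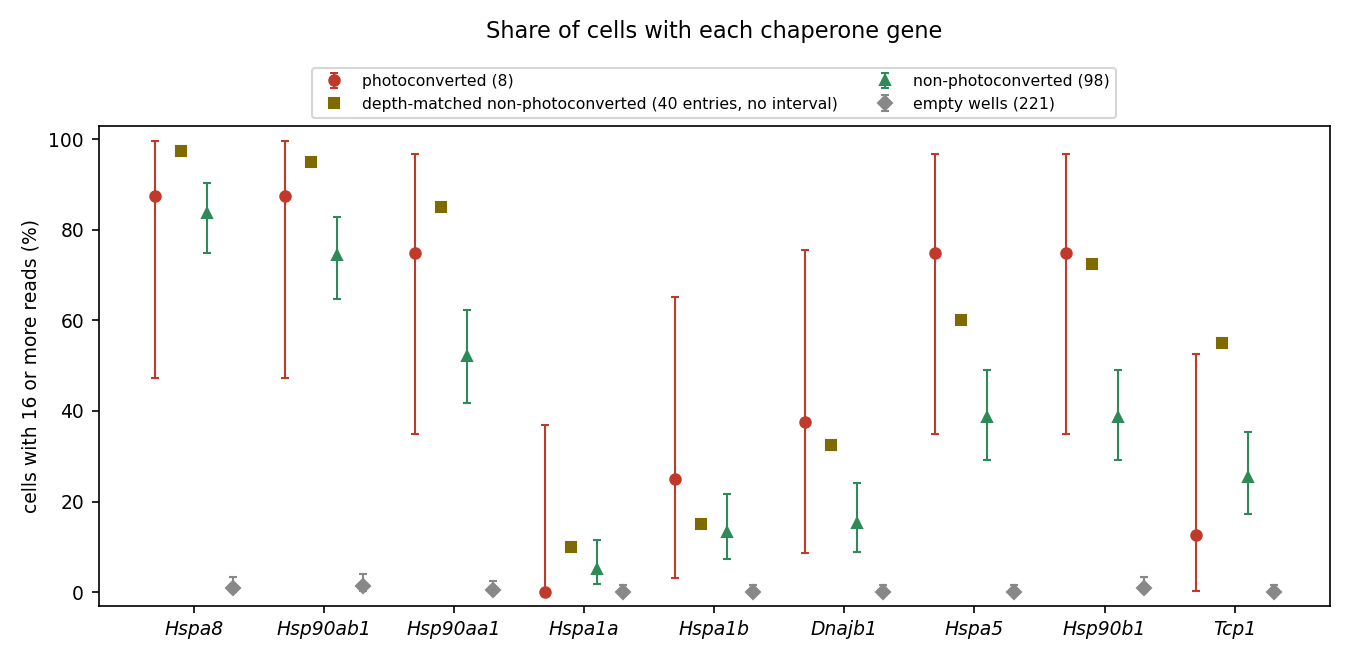
Share of cells with 16 or more reads of each of the 9 genes (percent, y axis), by group. Bars are exact 95% binomial intervals over cells; depth-matched entries repeat cells and have no interval. Hspa8 and Hsp90ab1 lie above 70% in each group of cells, Hspa1a lies at or under 10%, and empty wells stay under 2%.

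Across photoconverted cells 1 to 8, numbered by their place on the plate, Hspa8 had 1974, 1131, 2742, 1521, 21.2, 1725, 3431 and 849.0 CPM. Hsp90ab1 had 2160, 4316, 1958, 3769, 21.2, 3172, 2412 and 725.2 CPM in the same cells. Cell 5 was low for both genes, with 5 reads of each. That cell was not shallow: it had 2189 genes, and in the 29 non-photoconverted cells with as many genes or more the lowest count was 237 reads for Hspa8 and 228 for Hsp90ab1. Cell 5 also had 6 of 12 ILC2 markers and 161 reads of the ER gene Manf. Without cell 5, both genes were detected in 7 of 7 photoconverted cells, against 97.1% (Hspa8) and 94.3% (Hsp90ab1) of entries matched anew. All 8 cells lay inside the range of the non-photoconverted cells of any depth, which ran from 0 to 4369 CPM for Hspa8 and from 0 to 8203 CPM for Hsp90ab1.

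Mean level differed by less than 2-fold between colours at matched depth. Hspa8 averaged 1674 CPM in photoconverted cells, 1931 CPM in matched entries and 1333 CPM in all non-photoconverted cells. Hsp90ab1 averaged 2317, 2906 and 1921 CPM in the same order of groups. On the scale of mean CPM + 10, the log2 ratio of photoconverted to matched cells was -0.20 for Hspa8 and -0.33 for Hsp90ab1. The sign of both turned against all non-photoconverted cells, to 0.33 and 0.27, where depth differs. Within non-photoconverted cells Hsp90ab1 exceeded Hspa8 in 52 of 98 cells and Hspa8 exceeded Hsp90ab1 in 44.

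Hsp90aa1, the stress-responsive cytosolic HSP90, was detected in 6 of 8 photoconverted cells, 85% of matched entries, 51 of 98 non-photoconverted cells (52.0%, 41.7 to 62.2%) and 1 of 221 empty wells. It had 134.4, 765.0, 650.9, 1512, 17.0, 502.6, 376.3 and 106.1 CPM in photoconverted cells 1 to 8. Its mean was 508.0 CPM there, 477.5 CPM in matched entries and 423.1 CPM in all non-photoconverted cells. Cell 4, the deepest with 5129 genes, held 64.2% of the Hsp90aa1 reads of photoconverted cells. Hsp90ab1 exceeded Hsp90aa1 in 8 of 8 photoconverted cells. It did so in 80 of 98 non-photoconverted cells, with the reverse in 13.

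The inducible cytosolic genes were sparse in both colours. Hspa1a, the heat-inducible HSP70, had 0 reads in each of the 8 photoconverted cells, for which a limit of 3 counts of the total gives a share of up to 37.5%. It was detected in 10% of matched entries, in 5 of 98 non-photoconverted cells (5.10%, 1.68 to 11.5%) and in 0 of 221 empty wells, a limit of 1.36% by the same rule. Hspa1b, its near-identical neighbour, was detected in 2 of 8 photoconverted cells (25%, 3.19 to 65.1%), 15% of matched entries, 13 of 98 non-photoconverted cells (13.3%, 7.26 to 21.6%) and 0 of 221 empty wells. Photoconverted cells 1 and 4 carried it, with 203 and 282 reads, and cell 3 had 2 reads. Dnajb1, the inducible J-domain partner of HSP70, was detected in 3 of 8 photoconverted cells (37.5%, 8.52 to 75.5%), 32.5% of matched entries, 15 of 98 non-photoconverted cells (15.3%, 8.83 to 24.0%) and 0 of 221 empty wells. Its reads lay in photoconverted cells 2, 3 and 4, with 137, 237 and 229 reads, and the other 5 cells had 0.

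At least 1 of these 3 inducible genes was detected in 4 of 8 photoconverted cells (50%, 15.7 to 84.3%), 37.5% of matched entries and 24 of 98 non-photoconverted cells (24.5%, 16.4 to 34.2%), and in 0 of 221 empty wells. The photoconverted interval holds both other shares. The difference from matched entries was 12.5 percentage points at 16 reads and -17.5 points when 1 read counted as detected, so its sign depended on the limit. Of the 4 photoconverted cells, 3 had 1 of the 3 genes and 1 had 2. Of the 24 non-photoconverted cells, 18 had exactly 1, 3 had exactly 2 and 3 had all 3. Over all 106 cells kept, Hspa1a and Hspa1b were detected together in 4 cells, out of 5 with Hspa1a and 15 with Hspa1b. Dnajb1, found in 18 cells, shared 5 of them with Hspa1b.

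**Figure D2:**
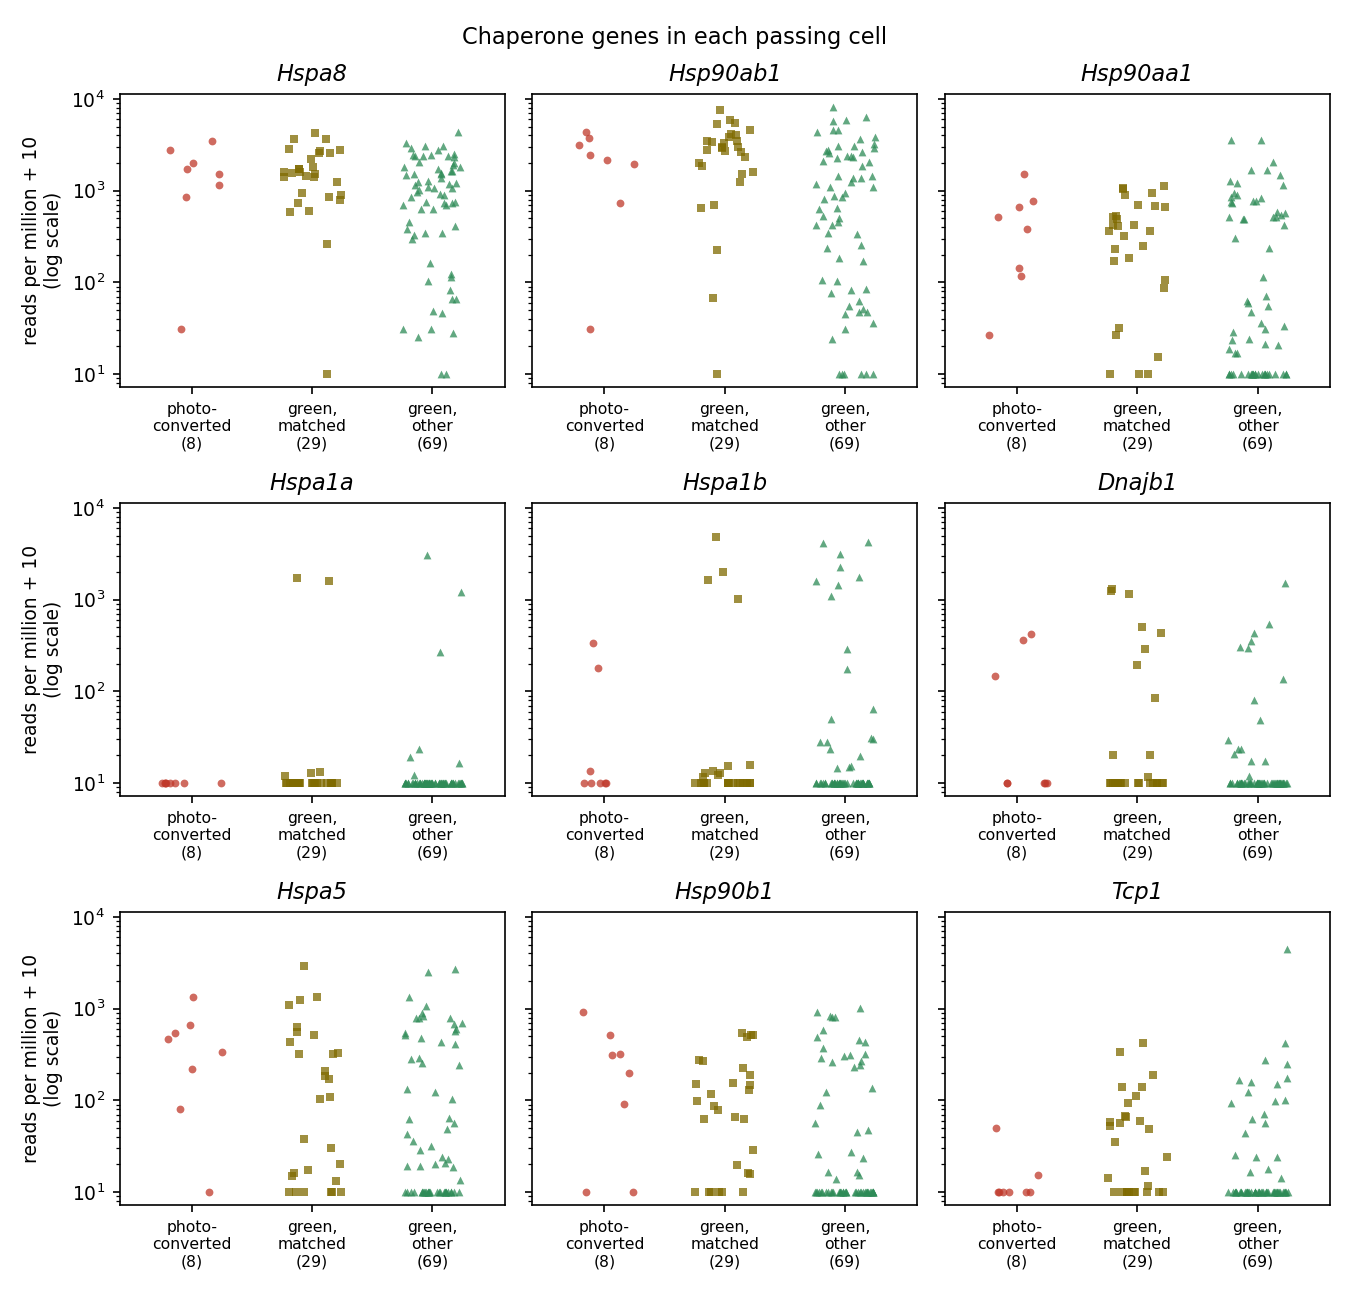
Level of each gene in every cell kept, as CPM + 10 on a log scale. Points are cells: 8 photoconverted, 29 non-photoconverted cells used in depth matching and the 69 others. Hspa1a, Hspa1b and Dnajb1 are at 0 in most cells with a few cells above 1000, and the single photoconverted cell near the floor for Hspa8 and Hsp90ab1 is cell 5.

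The photoconverted cell highest in Hspa1b reached 328.8 CPM, while a few non-photoconverted cells had higher levels of the pair. The highest of these held 964 reads of Hspa1a and 2926 of Hspa1b, 6455 CPM together, beside 748 reads of Dnajb1 and 1073 of Hsph1, the HSP110 that recycles HSP70. That 1 cell carried 36.7% of the Hspa1a and Hspa1b reads of non-photoconverted cells, and the 6 highest cells carried 81.2%. Mean Hspa1b was 62.5 CPM in photoconverted cells, 480.5 CPM in matched entries and 303.8 CPM in all non-photoconverted cells. The top cell fills 3 of the 40 matched entries. Without it, the matched mean of Hspa1b was 116.5 CPM and that of Hspa1a was 43.3 CPM, in place of 163.2 CPM. In all non-photoconverted cells without it, Hspa1b averaged 256.9 CPM.

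Inducible reads were set against Hspa8 reads in the same cell, a ratio in which depth cancels except through cells with no inducible read. Among those with Hspa8 detected, these were 3 of 7 photoconverted cells, 12 of 39 matched entries and 39 of 82 non-photoconverted cells. Sums over cells give more weight to deep cells. Summed over cells, Hspa1a, Hspa1b and Dnajb1 together came to 10.6% of the Hspa8 reads in photoconverted cells, 46.6% in matched entries and 36.5% in all non-photoconverted cells. Without the top cell, the share was 14.2% in matched entries and 25.9% in non-photoconverted cells. The median over cells ran the other way, at 15.3% in the 7 photoconverted cells with Hspa8 detected, 0.346% in 39 matched entries and 0.129% in 82 non-photoconverted cells. Inducible reads exceeded Hspa8 reads in 0 of the 7 photoconverted cells but in 10 of the 82 cells that were not photoconverted, with highest ratios of 31.0% and 477%. The photoconverted cells thus fell into a moderate group of 4 and a group of 4 at 0, with none of the extreme ratios.

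**Figure D3:**
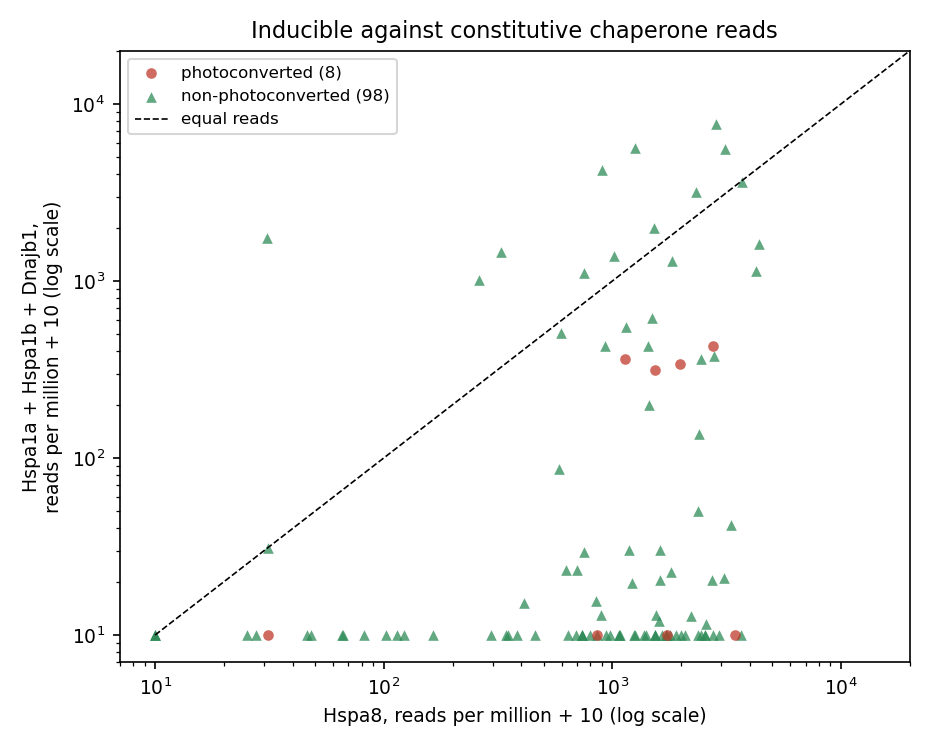
Reads of Hspa1a, Hspa1b and Dnajb1 together (y axis) against Hspa8 (x axis) in each cell, as CPM + 10, both axes on a log scale. The dashed line marks equal reads; 4 photoconverted cells lie below it at moderate levels and 4 at 0, while 10 non-photoconverted cells with Hspa8 detected lie above it.

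By median over cells, the stress-responsive HSP90 and the ER forms were higher per constitutive read in photoconverted cells. Their summed ratios were higher too, but those of Hsp90aa1 and Hspa5 fell below matched entries without 1 cell. Summed Hsp90aa1 reads were 27.0% of Hsp90ab1 reads in photoconverted cells, 19.0% in matched entries and 19.3% in all non-photoconverted cells, with medians over cells of 15.8%, 12.5% and 9.86%. Summed Hspa5 reads were 36.7% of Hspa8 reads in photoconverted cells, 21.6% in matched entries and 21.7% in non-photoconverted cells. Summed Hsp90b1 reads were 13.0% of Hsp90ab1 reads in photoconverted cells, 7.23% in matched entries and 6.90% in non-photoconverted cells. Photoconverted cell 4 alone held 59.7% of the Hspa5 reads and 45.1% of the Hsp90b1 reads of its colour. Without it the photoconverted ratios were 17.0% for Hsp90aa1, 19.6% for Hspa5 and 12.5% for Hsp90b1, where the entries matched to all 8 cells had 19.0%, 21.6% and 7.23%. The median over cells for Hspa5 per Hspa8 read was 18.8% in photoconverted cells, 7.87% in matched entries and 3.36% in non-photoconverted cells, and for Hsp90b1 per Hsp90ab1 read it was 7.74%, 3.10% and 2.48%.

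Other stress genes were compared between non-photoconverted cells with and without an inducible gene. Fos, an immediate early gene known to respond to tissue digestion, was detected in 83.3% of the 24 cells with an inducible gene and 51.4% of the 74 without. Jun was detected in 66.7% and 40.5%, and Hsph1 in 45.8% and 16.2%. Depth differed in the same direction, with medians of 2018.5 and 1412.5 genes, and its part in these shares was not tested. In the same order, Hsp90ab1 was detected in 95.8% and 67.6%, Hspa8 in 95.8% and 79.7%, and Hspa5 in 54.2% and 33.8%. Hsp90b1 was in 58.3% and 32.4%, and Hspe1 in 58.3% and 43.2%. Closer were Hsp90aa1, at 50% and 52.7%, Tcp1, at 25% and 25.7%, Dnaja1, at 79.2% and 71.6%, and Hspd1, at 20.8% and 20.3%. The part of depth was not tested for these genes either.

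The ER chaperones were detected in most photoconverted cells. Hspa5 (BiP), the HSP70 of the ER a partner of the sensors of the unfolded protein response, was found in 6 of 8 photoconverted cells (75%, 34.9 to 96.8%), 60% of matched entries, 38 of 98 non-photoconverted cells (38.8%, 29.1 to 49.1%) and 0 of 221 empty wells. Its levels in photoconverted cells 1 to 8 were 532.8, 207.2, 461.4, 1347, 0, 328.6, 646.0 and 70.7 CPM. The mean was 449.2 CPM, against 435.2 CPM in matched entries and 291.7 CPM in all non-photoconverted cells. Hspa5 had a higher share than matched cells under the 19 alternative settings with matching that can move a share, with differences of 5 to 27.5 percentage points, but its log2 ratio of mean CPM + 10 ranged from -0.40 to 0.67 over the 20 that can move a mean. The sign of its level was thus not fixed by these cells.

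Hsp90b1 (GRP94), the HSP90 of the ER, which folds integrins and Toll-like receptors, was found in 6 of 8 photoconverted cells, 72.5% of matched entries, 38 of 98 non-photoconverted cells and 2 of 221 empty wells. It had 306.1, 312.1, 912.2, 512.0, 80.6, 0, 186.7 and 0 CPM in photoconverted cells 1 to 8. The mean was 288.7 CPM there, 176.6 CPM in matched entries and 135.6 CPM in all non-photoconverted cells, a log2 ratio to matched cells of 0.68 on the mean CPM + 10 scale. The largest of the 9 log2 ratios upward was this one, and 19 of 20 alternative settings kept its sign, whereas the sign of its difference in share was kept in 13 of 19. Its size rested much on 1 cell: without photoconverted cell 3 the log2 ratio was 0.20. With no cell filter it was -0.64. Hspa5 and Hsp90b1 were detected together in 27 cells, out of 44 cells for each. A gene on the opposite strand, 1810014B01Rik, overlaps the 3′ end of Hsp90b1. It had 0 reads in photoconverted cells and 12 in non-photoconverted cells.

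Tcp1, a subunit of the ring-shaped chaperonin that folds actin and tubulin, was the 1 gene of the 9 with a difference of 20 percentage points or more at matched depth. It was detected in 1 of 8 photoconverted cells (12.5%, 0.316 to 52.7%), 55% of matched entries, 25 of 98 non-photoconverted cells (25.5%, 17.2 to 35.3%) and 0 of 221 empty wells. Photoconverted cells 3 and 4 had 3 and 67 reads and the other 6 had 0. The difference from matched entries was -42.5 points, and it lay between -54.3 and -2.5 points over the 19 settings with matching that can move a share. The mean was 5.65 CPM in photoconverted cells, 66.3 CPM in matched entries and 85.0 CPM in all non-photoconverted cells, where 1 cell held 34.9% of the reads. Acat3 lies at the 3′ end of Tcp1 on the opposite strand, and it has no row of its own in the table. The 26 cells of either colour with Tcp1 all had Hspa8 and Hsp90ab1 as well.

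Taking the 9 genes as a list, 0 had a share higher by 20 points or more than matched cells and 1 had a share lower by as much. Over the 5833 genes detected in at least 5 of the 106 cells, 15.6% were higher and 7.71% were lower by that amount. By mean CPM + 10, 0 of the 9 were 2-fold higher and 4 (Hspa1a, Hspa1b, Dnajb1 and Tcp1) were 2-fold lower, where 13.4% and 30.3% of all genes were. For Hspa1b and Dnajb1 the call rested on 1 non-photoconverted cell. Without the cell with the most Hspa1a and Hspa1b reads, their log2 ratios were -0.80 and -0.50, short of 2-fold. Dnajb1 was at -0.28 without cells with many cell cycle genes detected. Any higher share was seen in 4 of the 9 (Hspa1b, Dnajb1, Hspa5 and Hsp90b1) and in 52.9% of all genes, and a higher mean CPM + 10 in 3 of the 9 and 39.6% of all genes. Leaving out photoconverted cell 4 gave 2 with a higher share and 1 with a higher mean, and leaving out cell 2 gave 2 with a higher share. The median difference in share was -7.5 points for the 9 genes and 2.5 points for all genes, and the median log2 ratio was -0.33 and -0.32. The levels of the list as a whole were close to those of the background. Against all non-photoconverted cells, without matching, 4 of the 9 were higher by 20 points or more, as were 31.4% of all genes, and 7 of the 9 were higher by any amount, as were 79.7% of all genes.

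Drawing each cell down to 1000 gene reads gave another depth match. The expected share of cells with at least 1 read was 70.6% in photoconverted cells, 76.6% in matched entries and 60.3% in all non-photoconverted cells for Hspa8. For Hspa5 it was 31.7%, 25.1% and 17.9%, and for Hsp90b1 22.3%, 15.0% and 10.8%. For Hspa1b it was 5.48%, 13.3% and 11.0%, and for Dnajb1 9.55%, 15.8% and 6.11%. The ER pair thus stayed higher in photoconverted cells than in both other groups, while Hspa1b was lower than in either. The cell with the most Hspa1a and Hspa1b reads stayed in this draw, in 3 of the 40 matched entries. The Hspa1b difference without that cell was not computed. For Tcp1 the shares were 0.555%, 5.98% and 4.63%.

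Detection of the 9 genes followed depth within 1 colour. Non-photoconverted cells were split into 3 depth bins by genes detected, with 502 to 1194, 1220 to 2026 and 2067 to 4480 genes. From the shallowest to the deepest bin, Hspa8 was detected in 60.6%, 90.9% and 100% of cells, Hsp90b1 in 9.09%, 33.3% and 75%, and Tcp1 in 3.03%, 18.2% and 56.2%. Dnajb1 had 0%, 18.2% and 28.1%. Hspa1b departed from this order, at 6.06%, 21.2% and 12.5%, as did Hspa1a, at 0%, 9.09% and 6.25%, with 0 to 7 cells behind each value. These were also the 2 least detected of the 9 genes.

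**Figure D4:**
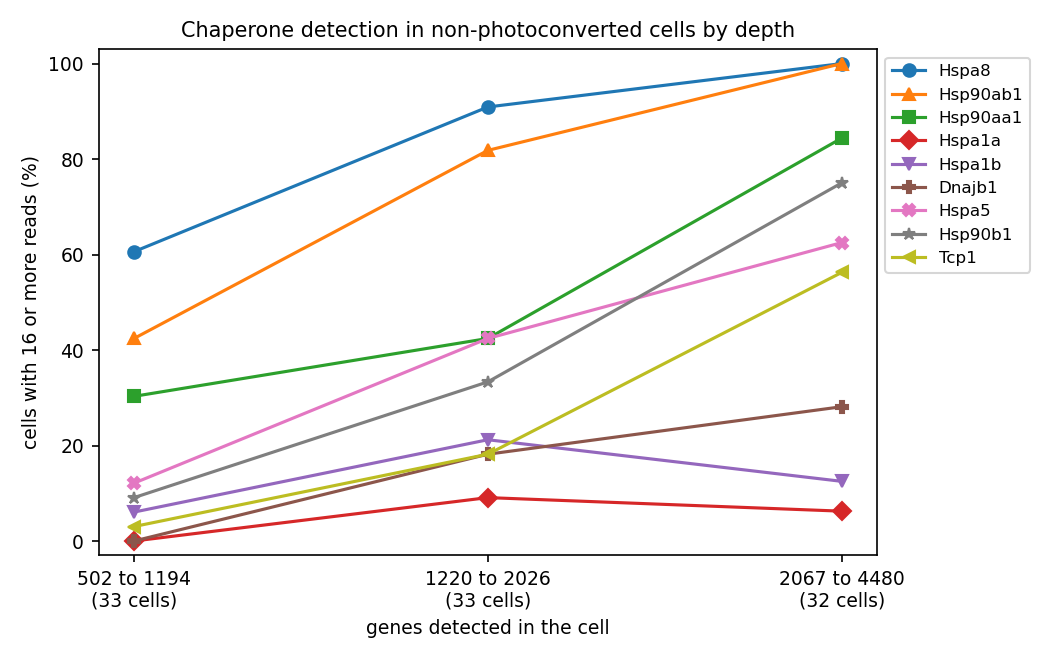
Share of non-photoconverted cells with 16 or more reads of each gene (percent, y axis), in 3 depth bins by genes detected (x axis, 33, 33 and 32 cells). Lines join the bins of 1 gene; 7 genes increase at each step, and Hspa1a and Hspa1b are highest in the middle bin.

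The wider folding machinery was read from 6 lists of 64 genes, of which 61 had a row and 50 were detected in at least 5 cells. At matched depth, 11 of the 50 had a share higher by 20 points or more in photoconverted cells and 3 had a lower one, beside 15.6% and 7.71% of all genes. The count of 11 was 17 without cell 5, and the count of 3 was 5 without cell 3 or without cell 8. The ER folding and unfolded protein response list held 7 of the 11. Among genes detected in at least 10 cells it held 5 of 8, since Sdf2l1 and Atf6 had 16 reads in 3 photoconverted and 4 non-photoconverted cells each. Of its 15 genes with enough cells, 12 were higher by any amount and 0 were lower by 20 points, with a median difference of 17.5 points beside 2.5 points for all genes. Its median log2 ratio of mean CPM + 10 was 0.72, beside -0.32. Sdf2l1, Atf6 and Pdia4 reached the limit of 5 cells only with photoconverted cells counted, Pdia4 with 2 beside 4 non-photoconverted cells. They are part of each value given for the 15 genes here and below. Those values were not recomputed without them.

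Xbp1, a transcription factor of the unfolded protein response, was detected in 6 of 8 photoconverted cells and 37.5% of matched entries, at means of 351.4 and 121.0 CPM. Manf, an ER-resident secreted factor, was detected in 6 of 8 photoconverted cells and 25% of matched entries, at 305.3 and 118.3 CPM, the largest difference of the list at 50 points. Calr, the lectin chaperone calreticulin, was detected in 5 of 8 and 47.5%, at 307.2 and 182.0 CPM. Dnajc3, an ER J-domain protein, had the opposite level, 84.0 CPM in photoconverted cells and 183.2 CPM in matched entries, with shares of 5 of 8 and 60%. Ern1, which encodes the sensor IRE1, had 0 reads in 8 photoconverted cells and was found in 10% of matched entries. The other 5 genes higher by 20 points were Canx, Dnajb11, Herpud1, Atf6 and Sdf2l1, named after their values were seen. Canx, the membrane-bound lectin chaperone, was in 7 of 8 photoconverted cells and 57.5% of matched entries.

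The number of these 15 ER genes detected per cell had a median of 8 in photoconverted cells, with 9, 7, 12, 12, 4, 7, 9 and 1 in cells 1 to 8. The median was 4 in matched entries, with a highest value of 9, and 2 in all non-photoconverted cells. Cells 3 and 4 therefore lay above every non-photoconverted cell, while cell 8, with 938 genes, lay at the low end. The count of ER genes higher by 20 points ran from 5 to 10 when each photoconverted cell was left out in turn. After drawing down to 1000 reads, 12 of the 15 were higher, 11 of them also higher at 16 reads. The differences ran from -6.28 to 18.3 points, so no gene of the list differed by 20 points. Matched shares in this draw were 0.896% to 14.2%, so no gene could have been lower by 20 points. Cell 4, with 5129 genes, lay above the 4480 genes of the deepest matched cell. Gene reads, sort fluorescence and position on the plate were not matched, and their part was not tested.

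The ER stress element searched above was found in 5 of the 16 genes of the ER list with a RefSeq promoter, beside 0.113% of all promoters. The list was made of ER folding and unfolded protein response genes, so this share describes the list and not these cells. The matches are shown with those of Hspa5 and Hsp90b1 so that the fixed ends, in capitals, can be compared across the spacer, each read 5′ to 3′ on the strand named.
Hspa5, chr2:34772025-34772043, plus strand: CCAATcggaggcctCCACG
Hsp90b1, chr10:86705638-86705656, minus strand: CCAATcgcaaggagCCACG
Hsp90b1, chr10:86705533-86705551, plus strand: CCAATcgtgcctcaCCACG
Calr, chr8:84847075-84847093, plus strand: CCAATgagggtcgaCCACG
Canx, chr11:50325800-50325818, minus strand: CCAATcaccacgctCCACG
Pdia6, chr12:17266491-17266509, plus strand: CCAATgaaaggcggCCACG
Dnajc3, chr14:118937827-118937845, plus strand: CCAATcagcgccaaCCACG
Creld2, chr15:88819520-88819538, minus strand: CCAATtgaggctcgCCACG
Of the 5 genes of the list with the element, 1 (Canx) was higher by 20 points in photoconverted cells. Of the 8 with enough cells and a promoter that lacked these letters, 4 were. Manf and Atf6 had no RefSeq promoter and were not searched.

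The other lists had 4 to 12 genes with enough cells, and their counts were not tested against all genes. Of all genes, 15.6% were higher and 7.71% lower by 20 points. Of the 12 chaperonin and prefoldin genes, 3 were higher and 2 lower by 20 points, with a median of 7.5 points. Cct8, a partner of Tcp1 in the same ring, was the lowest, in 2 of 8 photoconverted cells and 60% of matched entries, at 41.8 and 308.9 CPM. Cct2, another subunit of the ring, was in 6 of 8 and 65%, at 269.2 and 384.9 CPM. Of the 8 ring subunits with enough cells, Tcp1 included, 4 had a lower share and 7 a lower mean CPM in photoconverted cells. Of all 5833 genes compared, 2369 had a lower share, and only 39.6% had a higher mean CPM + 10. Pfdn2, a prefoldin subunit that delivers substrates to the ring, was in 3 of 8 and 5%.

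**Figure D5:**
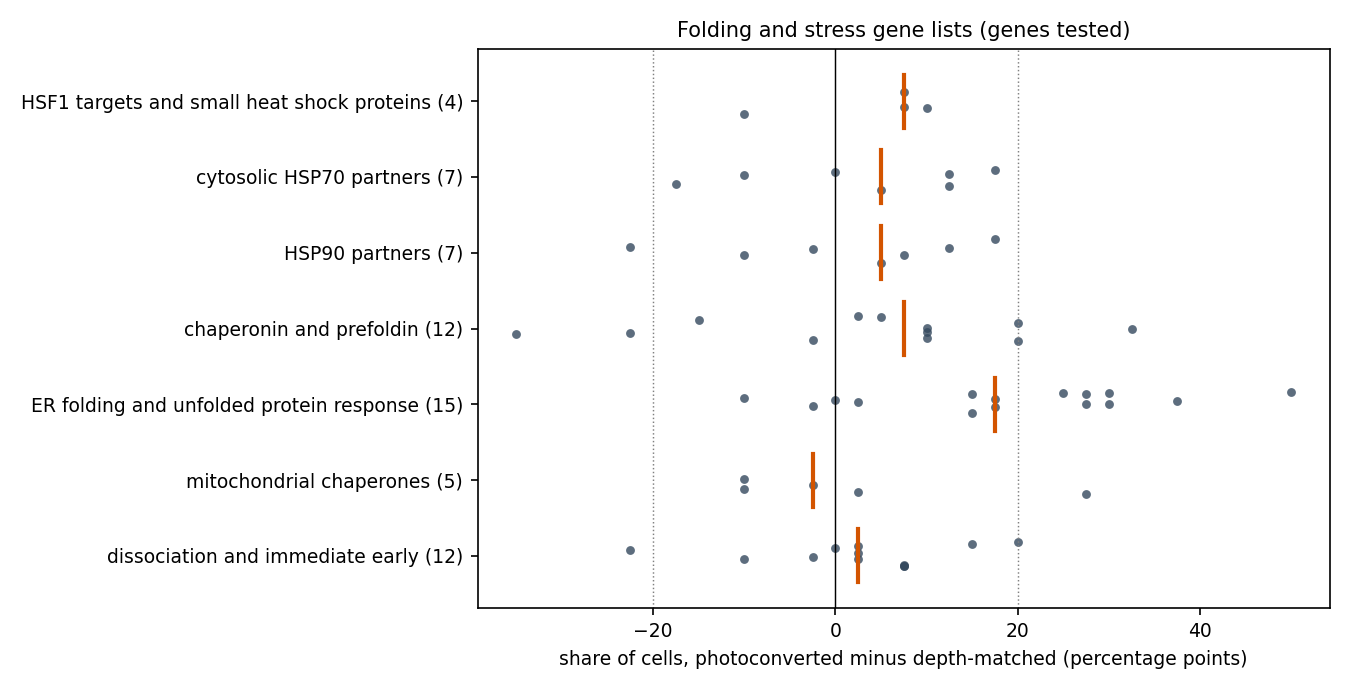
Difference in share of cells between photoconverted cells and depth-matched non-photoconverted cells (percentage points, x axis) for each gene of 7 lists. Points are genes, orange bars list medians, and dotted lines mark 20 points; the ER list has its median at 17.5 points and the immediate early list at 2.5 points.

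The list of heat shock factor 1 targets and small heat shock proteins, which also holds Hsf1 itself, had 4 genes with enough cells. Of these, 0 passed 20 points either way, beside 15.6% of all genes higher and 7.71% lower. The same background applies to each list of this paragraph. Dnaja1, a J-domain partner of HSP70, was in 8 of 8 photoconverted cells and 92.5% of matched entries, at 2984 and 1404 CPM. Hsph1 was in 4 of 8 and 40%, at 135.5 and 260.9 CPM. Among 7 cytosolic HSP70 partners 0 passed 20 points, with Hspa4, an HSP110, in 6 of 8 and 62.5%. Among 7 HSP90 partners 1 passed, Ppid, a cyclophilin co-chaperone, with 0 of 8 and 22.5%. Of 5 mitochondrial chaperones, Grpel1, the exchange factor of mitochondrial HSP70, was higher, in 3 of 8 and 10%, while Hspe1, the mitochondrial HSP10, was in 6 of 8 and 85%.

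Immediate early genes, which respond to handling, ranged widely. Their shares ran from 12.5% to 100% in photoconverted cells and from 10% to 97.5% in matched entries. Of 12, 1 was higher by 20 points (Egr1, 5 of 8 photoconverted cells and 42.5% of matched entries). Another 1 was lower (Fos, 5 of 8 and 85%), beside 15.6% of all genes higher and 7.71% lower. The median of the list was 2.5 points, beside 2.5 points for all genes. Junb averaged 3666 CPM in photoconverted cells and 5068 CPM in matched entries, and Zfp36 averaged 4335 and 6774 CPM. The part of handling in the chaperone values was not tested.

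The genes whose levels ranked most like those of the chaperones were listed over the 106 cells, as descriptions across cells that share 1 plate and differ in depth. For Hspa1a plus Hspa1b they were Cct4 (Spearman rho 0.40), Alox5, Atf4, Sorl1 and Vdac2. For Hspa8 they were Ly6e (0.47), Hsp90b1 (0.45), Tubb4b, Gimap1 and Acin1. For Hspa5 they were Uba1 (0.47), Cox7b, Ptgir, Hilpda and Ppp1r15a. The rho of the same levels with the number of genes detected was 0.26 for Hspa1a plus Hspa1b, 0.45 for Hspa8 and 0.41 for Hspa5.

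Some counts could hold reads of other loci. In the last 500 bases of Hspa8, 81.8% of 50-base windows also occur in other annotated genes, mostly the pseudogene Gm15459. The shares were 7.76% for Hsp90ab1, 4.21% for Hsp90b1 and 0% for the other 6 genes, Hspa1a and Hspa1b included, so the 3′ ends of this pair are distinct although their promoters are nearly the same. Gm15459 has no row in the table. Whether the authors' counting used strand is not given in the sources used here.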

How the data were processed

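Per the labels' protocols, ILC2 were sorted as single cells into 384-well plates for SORT-seq, which builds on CEL-seq2. The authors deposited a table of read counts per gene and well and a sort record with each well's colour and red fluorescence intensity in arbitrary units. STAR, STARsolo and edgeR are named, with mm10, per the submitters' processing notes; their roles and versions are not given in the sources used here. The deposited counts are reads and not molecular identifiers (a single value reaches 119691), so reads copied by PCR are not independent molecules and intervals cover counting error only. Row names were used for plate 1 alone, where mitochondrial rows held 5.63% of the 52614294 reads; on plates 2 to 4 rows of those names held 0.0531%, 0.0110% and 0.0204%, and no gene was named there. Spike-in rows (43.2% of plate 1 reads) stayed out of CPM. The table had 0 value columns without a sample.

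Python 3.11.15, pandas 2.3.3, scipy 1.17.1 and matplotlib 3.10.9 were used. Cells needed 500 genes at 1 read and under 25% mitochondrial reads. Depth matching took, for every photoconverted cell, the 5 green cells closest in log number of genes, and a cell could be taken again. Shares count cells with 16 or more reads, and folds use mean CPM + 10. Genes detected in 5 or more of 106 cells were compared; a gene was called at 20 percentage points or 2-fold. No p-value was computed, since each colour is 1 sample. Doublets were not called, since wells were index-sorted with 1 cell. The comparison of groups and the drawing down of reads were tested on simulated data. For the comparison, the pass limit was set on more photoconverted cells than these data hold, and depth matching was not simulated.

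The 9 genes, the lists and the measures were chosen with earlier results of these data known. Of each list, the 3 genes with the highest mean CPM and the 1 with the largest share difference each way could be named, and the 5 genes most like Hspa1a plus Hspa1b, Hspa8, Hspa5 and Hsp90ab1 by Spearman rho among genes detected in 25% of cells; the genes most like Hsp90ab1 are not reported here. Alternatives were other detection limits, filters, match sizes, scalings and pseudocounts, and leaving cells out. Gene coordinates are from GENCODE M21 on mm10.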

Additional observations from a re-analysis of the deposited data

How the results depend on the processing

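No paired analysis was possible because the comparison rests on 1 plate and comes from no test. Each result was recomputed under 26 alternatives, 3 of them (leaving out the cell with the most Hspa1a and Hspa1b reads, leaving out the 2 photoconverted cells nearest the sort boundary, and asking for detection in 10 cells) chosen after seeing the data. Detection limits cannot move a mean, nor scalings a share. Against all non-photoconverted cells, 7 of the 9 genes had a higher share in place of 4 and 6 a higher mean CPM in place of 3. In the same comparison 30 pathway genes were higher by 20 points in place of 11, and 0 were lower in place of 3. Over all genes, 31.4% were higher and 0.257% lower by that amount there. Of the ER genes 12 were higher in place of 7, and the log2 ratio of Dnajb1 was 0.30 in place of -1.09. With no cell filter, 1 of the 9 had a higher mean CPM, and 3 pathway genes were higher, 0 lower and 2 ER genes higher by 20 points. Scaling by spike-in reads gave 5 of the 9 with a higher mean, and leaving out mitochondrial reads gave 1. After drawing down to 1000 reads, 0 pathway genes were higher or lower by 20 points and 0 ER genes were higher. Shares are low in this draw, at 0.896% to 14.2% in matched entries for the ER genes. The draw therefore cannot decide 20-point calls for genes of low share. Asking for 1000 genes or matching 3 cells gave 5 pathway genes lower. For mean CPM, spike-in scaling gave 14 of the 50 pathway genes 2-fold higher in place of 9. A pseudocount of 50 gave 5 higher and 2 lower in place of 9 and 9, and detection in 10 cells gave 5 lower. As reported, 13.4% of all genes were 2-fold higher and 30.3% were 2-fold lower. Shares over all genes were not computed with cells left out or under the other matched settings. The log2 ratio of inducible to Hspa8 reads, from mean CPM, was -2.15 as reported, -0.71 without the top Hspa1 cell and -1.51 without the 2 cells nearest the sort boundary.

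Leaving out each photoconverted cell in turn gave 2 to 5 of the 9 genes with a higher share, 1 to 3 with a higher mean CPM, 8 to 17 pathway genes higher and 2 to 5 lower by 20 points, 3 to 11 genes 2-fold higher and 9 to 12 2-fold lower, 5 to 10 ER genes higher, a difference of 5.71 to 22.9 points in cells with an inducible gene, and a log2 inducible ratio of -2.42 to -1.57. The lowest count of pathway genes 2-fold higher, 3, came without cell 3. The causes were not tested. Leaving out a plate was not possible with 1 plate. With 8 photoconverted cells, 1 cell is 12.5 percentage points, so differences of that size rest on single cells, and depth of the shallow cells limits what 16 reads can show.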

Other observations

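Wells outside the comparison also held chaperone reads. Of the 4 photoconverted wells that failed the filter, with a median of 433 genes, 1 had Hspa8 at 16 reads or more and 1 had Hsp90aa1, while the other 7 chaperone genes were detected in 0. Of the 53 non-photoconverted wells that failed it, with a median of 166 genes, 6 had Hspa8, 6 had Hsp90ab1, 2 each had Hspa5, Hsp90aa1 and Hsp90b1, and 1 had Hspa1b.

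The wells recorded as empty were not free of reads. At 1 read, Hsp90ab1 was seen in 49 of 221 empty wells (22.2%), Hspa8 in 38 (17.2%) and Hsp90aa1 in 12 (5.43%), and the highest counts were 301, 83 and 92 reads. The inducible genes were rarer there, with Hspa1b in 6 wells at up to 4 reads, and Hspa1a and Dnajb1 in 1 well each. In 1 empty well 701 genes had a read, above the limit of 500 set for cells.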
